A study of Sus scrofa with 16 samples.

Results

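The cluster of miR-183, miR-96 and miR-182 is a group of 3 miRNAs that are transcribed together, and its known members were followed here in whole ovaries of 16 Canadian Large White sows. The rows were taken by name, as every known miRNA called ssc-miR-182, ssc-miR-183 or ssc-miR-96. This gave 2 of the 1940 entries of the count table, ssc-miR-182 and ssc-miR-183, and 0 rows under the name ssc-miR-96, which is therefore not analysed here under that name. The cluster itself was chosen on its levels across the phases of the estrous cycle in these same libraries, so the difference between phases is given as a description with no test.

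Small RNA was sequenced from the ovary of each sow, and the groups cross fecundity with phase. In the luteal phase, LH stands for high and LL for low fecundity, and ovaries were taken on day 14 counted from the first day of estrus. In the follicular phase, FH stands for high and FL for low fecundity, and ovaries were taken on day 20. Each group held 4 sows, and the study graded fecundity by the total number of piglets born. By the study's records LH and LL shared no parity, so parity and fecundity in the luteal phase cannot be told apart. An ovary in the luteal phase holds corpora lutea beside follicles and stroma, and the libraries were made from whole tissue.

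A miRNA is a short RNA that pairs with messenger RNAs, mainly through its seed, and lowers their translation or stability. The genes of miR-183, miR-96 and miR-182 lie close together on the same strand and are processed from a shared primary transcript in vertebrates. Their seeds are closely related, and FOXO transcription factors are among their known targets. The cluster is best known from sensory cells of the retina and inner ear and is also expressed in the pituitary and in many epithelial tumours. In bovine granulosa cells, the steroid-producing cells of the follicle, its members are known to act on FOXO1.

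In the RefSeq annotation of Sscrofa11.1 the genes MIR183, MIR96 and MIR182 follow each other on chromosome 18 with no other gene between them, and UBE2H and NRF1 flank them. The files use Sscrofa10.2, so no coordinate of that annotation is given. Among the study's predicted miRNAs, 2 entries at this locus carried the same mature sequence of 23 bases, which is known as miR-96. They were found by sequence after the data were seen, they are outside the naming rule, and the name miR-96 rests on background knowledge of the sequence. NovelmiRNA-1510 lies at chr18:20030898-20030961 and NovelmiRNA-708 at chr18:20030898-20030959, both on the plus strand of Sscrofa10.2. The mature sequence and both hairpins are shown because they identify the entries, with the seed (bases 2 to 8 of the mature sequence) in capitals.
NovelmiRNA-1510 mature: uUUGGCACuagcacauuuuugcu
NovelmiRNA-1510 hairpin: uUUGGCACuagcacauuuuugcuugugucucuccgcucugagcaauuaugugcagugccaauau
NovelmiRNA-708 hairpin: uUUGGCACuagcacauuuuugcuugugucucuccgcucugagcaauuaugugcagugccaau
The hairpins differed by 2 bases at the 3′ end. NovelmiRNA-708 had counts in 1 library, LL4, with 1537, and NovelmiRNA-1510 had counts in the other 15 and 0 in LL4. The limit that 0 counts allow in LL4 is 0.122 CPM of the library total (CPM, counts scaled to a common library size). Their counts were therefore also summed into a merged entry. As listed, NovelmiRNA-1510 alone had a log2 fold change of 0.16 (SE 1.64) for LL over LH, against 0.40 (SE 0.81) for the merged entry.

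Another 4 predicted entries shared the seed of NovelmiRNA-1510 and held 2 to 136 counts in all 16 libraries together, so the merged entry carried nearly all reads with this seed among the predicted miRNAs. NovelmiRNA-257 lies at chr18:20030653-20030716 on the minus strand, 181 bases from NovelmiRNA-1510. It had 92 counts in all, in 7 libraries, with at most 19 in 1 library. The plus strand opposite its hairpin is shown because it contains the sequence known as mature miR-183. The longest run it shares with the mature sequence of NovelmiRNA-1510, 7 bases that reach from base 3 to base 9, is in capitals in both.
Plus strand opposite NovelmiRNA-257: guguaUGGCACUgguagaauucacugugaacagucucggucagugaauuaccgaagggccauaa
NovelmiRNA-1510 mature: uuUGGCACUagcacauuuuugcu
The run covers bases 3 to 8 of the mature sequence of NovelmiRNA-1510, which lie in its seed, and the base after the seed.

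Total counts ran from 8998496 to 37194836 per library, and known miRNAs held 97.1% to 99.2% of them. Other levels are given as CPM after TMM scaling, a correction for the composition of each library, and reads were amplified without molecular identifiers, so intervals of counting cover counting error only. Some libraries stood apart from their group in miRNAs other than the members. The miRNAs used to show this were chosen with earlier results of these data known. In LH2, ssc-miR-21, an abundant miRNA of luteal tissue, was at 29900 CPM, against 108136 to 308425 CPM in the other 7 luteal libraries and 27610 to 92082 CPM in the follicular ones. LH4, FL2 and FL4 had 21379, 7335 and 15224 CPM of ssc-miR-34c, a miRNA of ciliated and tubal epithelium, against 18.3 to 195.7 CPM in the other 13 libraries. Over the 16 libraries ssc-miR-21 followed the mean of the members (Pearson's r = 0.89), so it does not mark LH2 independently of them. Results that rest on LH2 or FL4 are given with and without these sows.

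ssc-miR-182 was the most abundant entry of the cluster in all 16 libraries. In LH it was at 284, 73.9, 747 and 208 CPM in sows 1 to 4, and in LL at 581, 738, 298 and 231 CPM. In FH it was at 139.9, 30.6, 67.4 and 56.8 CPM, and in FL at 58.4, 83.2, 42.9 and 292 CPM. LH2 was low among the luteal sows and FL4 high among the follicular ones, and these 2 sows made the phases overlap. The raw counts behind these levels ran from 271 in FH2 to 17204 in LL1, or 0.00205% to 0.101% of a library. Among the known miRNAs ssc-miR-182 ranked between 60th, in LH3, and 132nd, in FH2.

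ssc-miR-183 had a like pattern at fewer counts. It was at 88.7, 7.37, 236 and 84.7 CPM in LH and at 269.6, 253, 76.4 and 87.9 CPM in LL. It was at 44.4, 8.35, 10.7 and 13.7 CPM in FH and at 14.5, 20.1, 8.07 and 81.9 CPM in FL. LH2 held the lowest level of all 16 sows, and FL4 lay inside the range of LL. Raw counts ran from 74 in FH2 to 7978 in LL1.

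The merged entry known as miR-96 was at 55.7, 5.50, 128 and 84.8 CPM in LH and at 152, 95.6, 43.1 and 52.9 CPM in LL. It was at 26.1, 6.32, 13.0 and 14.2 CPM in FH and at 13.7, 13.0, 6.17 and 71.1 CPM in FL. Again LH2 was the lowest luteal sow, at follicular levels, and FL4 the highest follicular sow, at luteal levels. Raw counts ran from 56 in FH2 to 4504 in LL1.

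**Figure D1:**
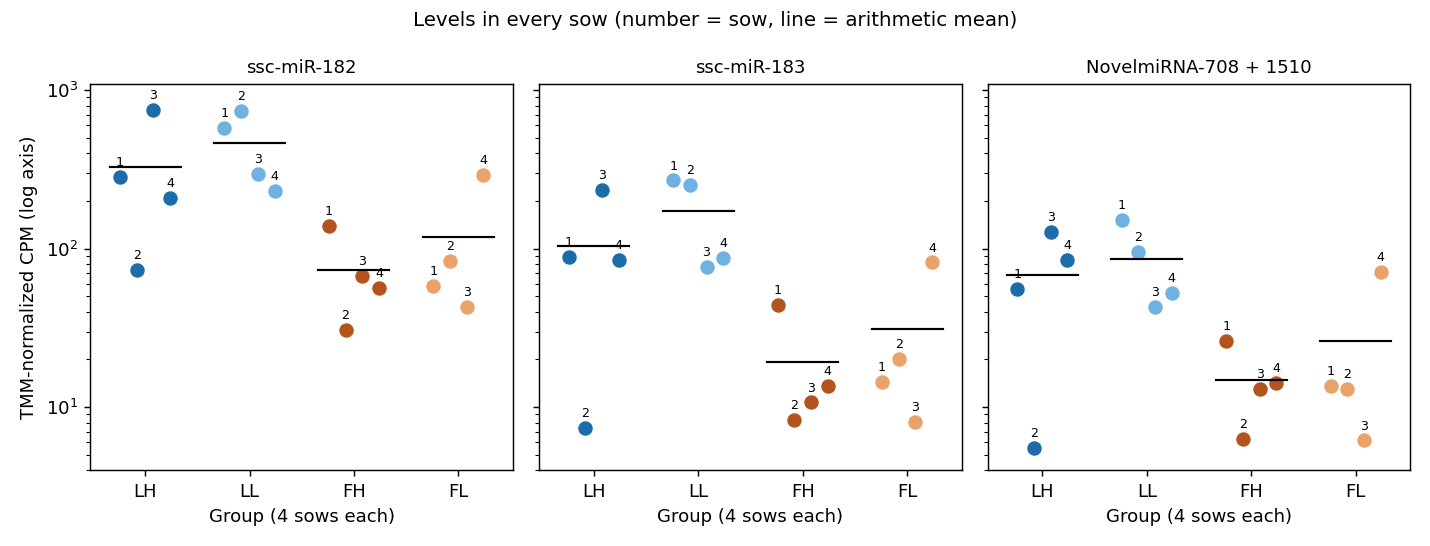
TMM-normalized CPM (log axis) of ssc-miR-182, ssc-miR-183 and the merged entry NovelmiRNA-708 and NovelmiRNA-1510 in each of 16 sows, by group; a point is a sow with its number and a line the arithmetic mean of 4 sows. In all 3 panels LH2 sits with the follicular sows and FL4 with the luteal ones.

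For ssc-miR-182 the group means were, from high to low, 462 ± 239 CPM in LL, 328 ± 292 in LH, 119 ± 116 in FL and 73.7 ± 46.8 in FH (SD, n = 4). For ssc-miR-183 they were 172 ± 104 in LL, 104.2 ± 95.5 in LH, 31.1 ± 34.2 in FL and 19.3 ± 16.9 in FH. For the merged entry they were 85.9 ± 49.7 in LL, 68.5 ± 51.5 in LH, 25.99 ± 30.3 in FL and 14.9 ± 8.22 in FH. The order of the 4 groups was the same for all 3 entries, but FL lay above FH only with FL4: without it, a check added after seeing the data, the FL means were 61.5 ± 20.3, 14.2 ± 6.01 and 10.9 ± 4.14 CPM (SD, n = 3), below those of FH. Without LH2 the LH mean of the merged entry was 89.5 ± 36.5 CPM (n = 3), above that of LL, whereas the LH means of the members, 413 ± 291 and 136 ± 86.2 CPM, stayed below LL. Neighbours in it (LL and LH, LH and FL, FL and FH) overlapped for each entry. Within LH the highest sow was 10.1 times the lowest for ssc-miR-182, 32.0 times for ssc-miR-183 and 23.3 times for the merged entry, whereas within LL the spread was 3.19 to 3.53 times.

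The levels of the cluster were lower in the follicular than in the luteal ovaries, which is the pattern the cluster was chosen on. In whole tissue, fewer cells of a type and less RNA per cell cannot be told apart. Between the high fecundity groups ssc-miR-182 was 4.45-fold lower in FH than in LH, a log2 fold change of -2.16 (SE 0.77, edgeR, all 16 libraries). For ssc-miR-183 the FH over LH value was -2.43 (SE 0.96), or 5.40-fold lower, and for the merged entry -2.20 (SE 0.90), or 4.59-fold lower. The median over the 445 miRNAs tested was -0.25, and 57 of them (12.8%) had an unadjusted P under 0.05 in edgeR and a log2 fold change of 1 or more in size, the study's threshold. Without LH2 the 3 values were -2.47, -2.82 and -2.57. Without LH3, the highest LH sow, they were -1.37, -1.65 and -1.70.

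Between the low fecundity groups ssc-miR-182 was 3.88-fold lower in FL than in LL, a log2 fold change of -1.96 (SE 0.76). ssc-miR-183 was at -2.46 (SE 0.96), or 5.51-fold lower, and the merged entry at -1.72 (SE 0.88), or 3.31-fold lower. The median over all 445 miRNAs tested was -0.13, and 134 of them (30.1%) passed the threshold. Without FL4 the 3 values were -2.87, -3.54 and -2.90. Each entry was higher in all 4 LL sows than in every FH sow. These groups differ in both phase and fecundity, and the share of all miRNAs that separate them is not given here. Of the 8 luteal sows, 4 were above every follicular sow for ssc-miR-182, 6 for ssc-miR-183 and 4 for the merged entry. Without LH2 and FL4, the sows that made the phases overlap, the phases did not overlap for any of the 3. Leaving out these sows fixes that outcome, so it is no further support for a difference between phases.

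Scaling moved all values between phases together. With library size in place of TMM the FL over LL median of all miRNAs was -0.66, ssc-miR-182 was at -2.38 and ssc-miR-183 at -2.88. The FH over LH median was then -0.46, with ssc-miR-182 at -2.26 and ssc-miR-183 at -2.52. Both members were lower in the follicular phase than the median miRNA under both scalings. The miRNAs past the threshold split into 73 higher and 61 lower in FL with TMM and into 49 and 88 with library size.

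**Figure D2:**
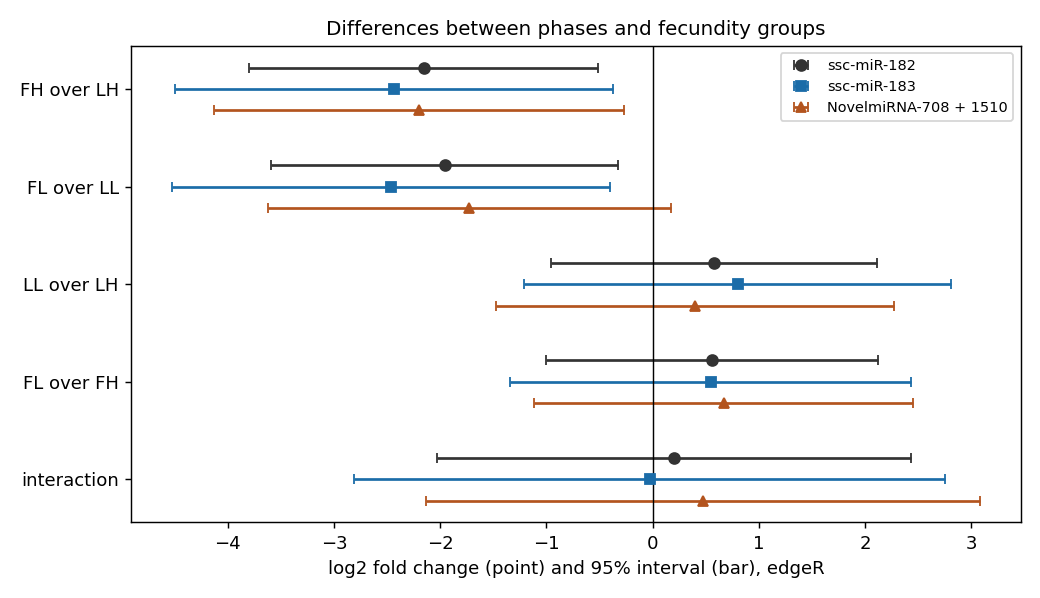
Log2 fold changes (points) with 95% intervals (bars) from edgeR for ssc-miR-182, ssc-miR-183 and the merged entry in 5 comparisons; interaction is FL over FH minus LL over LH. The phase values, on which the cluster was chosen, sit between -2.46 and -1.72. The intervals of the fecundity and interaction values cover 0, as does that of the merged entry for FL over LL (-3.62 to 0.17).

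The fecundity groups were tested within each phase. The cluster was chosen on its levels across phases, but with earlier results of these data known. These tests may therefore not be fully independent of that choice. In LH vs. LL neither member passed the threshold. ssc-miR-182 had a log2 fold change of 0.58 for LL over LH (SE 0.66, 95% interval -0.96 to 2.11), with an adjusted p of 0.688 in edgeR's quasi-likelihood test. ssc-miR-183 was at 0.80 (SE 0.87, interval -1.21 to 2.81, edgeR adjusted p = 0.688), and the merged entry at 0.40 (SE 0.81, interval -1.47 to 2.27, edgeR adjusted p = 0.851). The exact two-sided permutation test over 4 against 4 sows gave p = 0.371 for each member and p = 0.6 for the merged entry, and 0.0286 is the smallest p that it can give. For ssc-miR-182 the groups overlapped, with LH1 inside the LL range and LH3, at 747 CPM, above it, while LH2 and LH4 lay below it. Without LH3 ssc-miR-182 was at 1.26 and ssc-miR-183 at 1.47, and without LH2 at 0.19 and 0.35. The direction of the merged entry was not stable, at -0.04 without LH2, -0.12 without LL1 and -0.0015 with the share of raw reads kept after cleaning as a covariate.

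Of the 362 miRNAs tested in LH vs. LL, 47 (13.0%) passed the threshold and 3 (0.829%) had an adjusted p under 0.05 in edgeR, and 0 of the 2 members were among either. With library size in place of TMM, the 24 higher and 23 lower miRNAs became 57 and 11. The median over all miRNAs then moved from 0.15 to 0.73, and ssc-miR-182 from 0.58 to 1.201.

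In FH vs. FL neither member passed the threshold either. ssc-miR-182 was at 0.56 for FL over FH (SE 0.67, interval -1.002 to 2.12, edgeR adjusted p = 0.797). ssc-miR-183 was at 0.54 (SE 0.82, interval -1.34 to 2.43, edgeR adjusted p = 0.842) and the merged entry at 0.67 (SE 0.77, interval -1.12 to 2.45, edgeR adjusted p = 0.797). Exact permutation tests gave p = 0.571 for each member and p = 0.8 for the merged entry. These positive values rested on FL4. Without it they were -0.25 for ssc-miR-182, -0.43 for ssc-miR-183 and -0.39 for the merged entry. Of the 307 miRNAs tested, 19 (6.19%) passed the threshold and 2 (0.651%) had an adjusted p under 0.05 in edgeR. With library size only, the median of all miRNAs moved from 0.12 to 0.44.

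The effect of fecundity was not found to differ between phases. The interaction, FL over FH minus LL over LH, was 0.20 for ssc-miR-182 (SE 1.04, interval -2.03 to 2.43), -0.03 for ssc-miR-183 (SE 1.30, interval -2.81 to 2.75) and 0.47 for the merged entry (SE 1.22, interval -2.13 to 3.08). Adjusted p in edgeR was 0.971 or higher for each. Of 445 miRNAs tested, 59 (13.3%) passed the threshold and 0 (0%) had an adjusted p under 0.05 in edgeR, where 63 had an unadjusted P under 0.05. DESeq2 gave 58 with an adjusted p under 0.05 and 82 with an unadjusted one. The sign of the members' interaction was not stable. For ssc-miR-182 it was -0.72 without FL4 and -0.11 with library size only. For ssc-miR-183 it was 0.32 without LH2 and 0.69 without FH1, but -1.11 without FL4. The split of the miRNAs past the threshold was 41 higher and 18 lower with TMM and 29 and 26 with library size.

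The ratio of ssc-miR-182 to ssc-miR-183 within a library does not depend on any scaling. It was 3.20, 10.03, 3.17 and 2.46 in LH, and 2.16, 2.92, 3.90 and 2.63 in LL. It was 3.15, 3.66, 6.29 and 4.16 in FH, and 4.03, 4.15, 5.32 and 3.57 in FL. LH2 stood above every other sow, with an exact 95% counting interval of 8.51 to 11.9, and FH3 came next with an interval of 5.29 to 7.51. Mean log2 ratios were 1.99 ± 0.91 for LH, 1.504 ± 0.36 for LL, 2.06 ± 0.43 for FH and 2.08 ± 0.24 for FL (SD, n = 4), and without LH2 the LH mean was 1.55. The ranges of LL and FL overlapped, from 2.16 to 3.90 and from 3.57 to 5.32. In these libraries ssc-miR-182 thus outnumbered ssc-miR-183 by 2.16 to 10.03 times.

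The merged entry was the least abundant of the cluster in most libraries. ssc-miR-182 outnumbered it by 2.46 times in LH4 to 13.4 times in LH2. ssc-miR-183 outnumbered it by up to 2.64 times, in LL2, and fell below it in FH3 and FH4, with ratios of 0.82 (counting interval 0.66 to 1.02) and 0.96 (0.83 to 1.11), and in LH4 both had nearly the same counts, 1885 and 1887. The mean log2 ratio of ssc-miR-183 to the merged entry came to 0.49 ± 0.38 for LH, 0.95 ± 0.31 for LL, 0.21 ± 0.47 for FH and 0.33 ± 0.24 for FL. LL was highest, and every LL sow was above every FL sow, with ratios of 1.66 to 2.64 against 1.06 to 1.55. The LL range overlapped those of LH, 0.999 to 1.84, and of FH, 0.82 to 1.70. How often ratios of other miRNAs separate LL from FL was not tested. The counting of reads per entry is not named in the sources used here, and the merged sum spans 2 entries, so levels of different entries are compared only as counts.

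**Figure D3:**
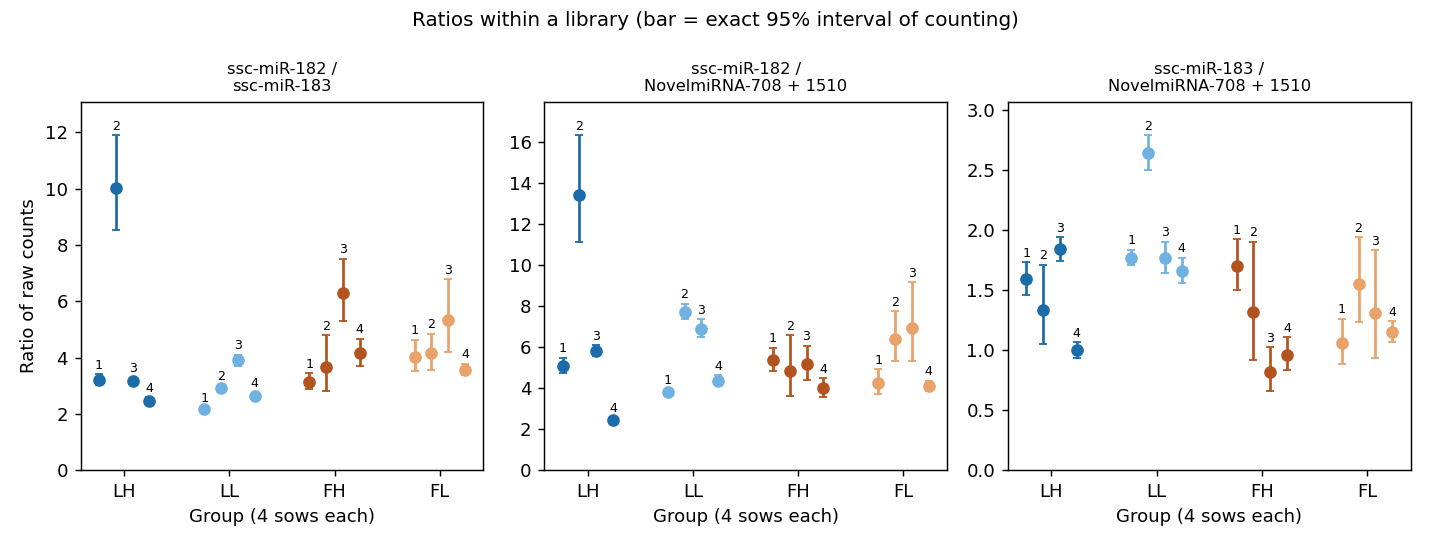
Ratios of raw counts between the entries of the cluster in each of 16 sows, by group; bars are exact 95% intervals that cover counting error only, and numbers name sows. LH2 stands above all other sows in both ratios that involve ssc-miR-182, at 10.03 and 13.4.

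The entries rose and fell together across sows. Over the 16 libraries Pearson's r of log2(CPM + 1) was 0.97 between ssc-miR-182 and ssc-miR-183, 0.95 between ssc-miR-182 and the merged entry and 0.98 between ssc-miR-183 and the merged entry. After each group's mean was subtracted r was 0.95, 0.91 and 0.97, so sows of the same group varied together as well. Without LH2 and FL4 it was 0.99, 0.96 and 0.98. These are descriptions: the values share library, depth and scaling.

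**Figure D4:**
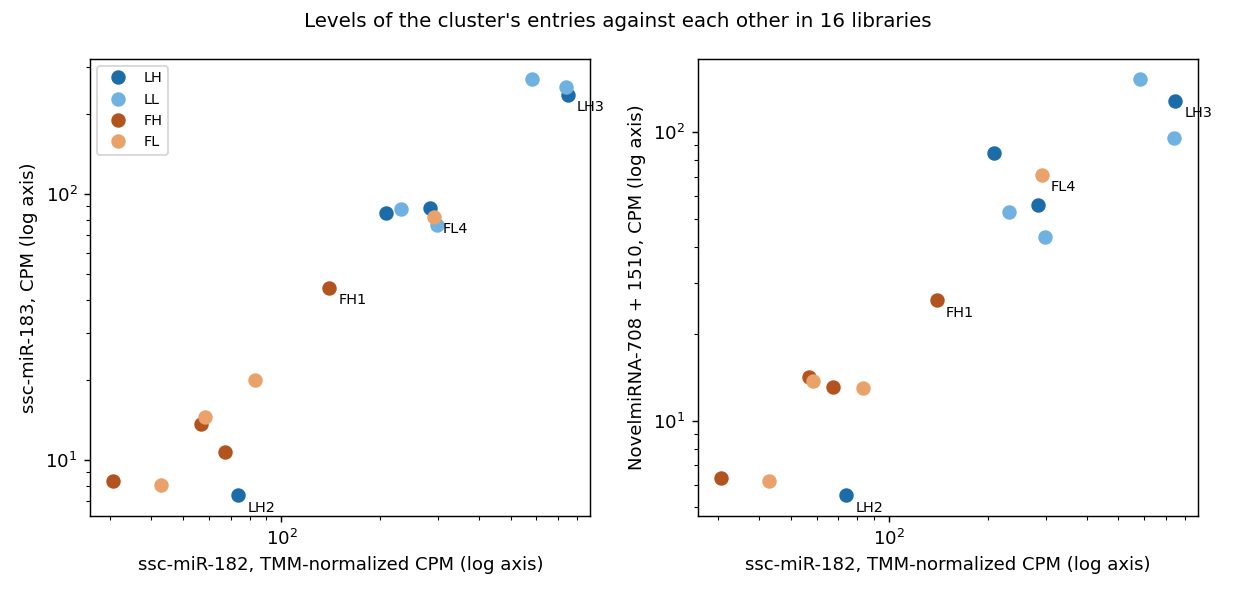
Levels of ssc-miR-183 (left) and of the merged entry (right) against ssc-miR-182 in 16 libraries, in TMM-normalized CPM on log axes; colours mark groups. The points lie along a single band (r = 0.97 and 0.95), with FL4 among the luteal sows and LH2 below the band in both panels.

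Other miRNAs with a like pattern were named by their correlation with the mean of the members, over the 171 other known miRNAs with counts in all 16 libraries. The 5 highest were ssc-miR-425-5p (r = 0.90), ssc-miR-21 (0.89), ssc-miR-30d (0.88), ssc-miR-500 (0.87) and ssc-miR-222 (0.87). With group means subtracted their r was 0.82, 0.81, 0.74, 0.74 and 0.68. ssc-miR-425-5p was at 305 to 619 CPM in LL and at 82.9 to 286 CPM in FH, with FL4 at 502 CPM. Its LH range, 167 to 489 CPM, overlapped that of FH. ssc-miR-21, known to protect granulosa and luteal cells from apoptosis, was at 163217 to 221378 CPM in LL and at 27610 to 44426 CPM in FL. In LH it was at 29900 to 308425 CPM, which overlapped FL. FL4 held 44426 CPM of it, below the LL sows, whereas FL4 held luteal levels of the members. ssc-miR-222, known from endothelium and for targeting KIT, was at 246 to 478 CPM in LL and at 46.7 to 110.4 CPM in FH, with FL4 at 289 CPM. Its LH range, 104 to 277 CPM, overlapped that of FH. The share of all miRNAs that separate these groups is not given here.

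The 3 lowest were ssc-miR-29a (r = -0.89), a miRNA that targets collagens, ssc-let-7c (-0.87), of the let-7 family known from differentiated cells, and ssc-miR-140-5p (-0.85), best known from cartilage. With group means subtracted they were at -0.79, -0.83 and -0.76. ssc-let-7c was at 7755 to 13783 CPM in LL and at 27189 to 44388 CPM in FL. LH2 was at 32227 CPM of ssc-let-7c, above the 15508 to 18337 CPM of the other LH sows. For ssc-miR-140-5p FL4 was the lowest of all 16 sows, at 4135 CPM, against 11892 to 15359 CPM in the other FL sows.

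**Figure D5:**
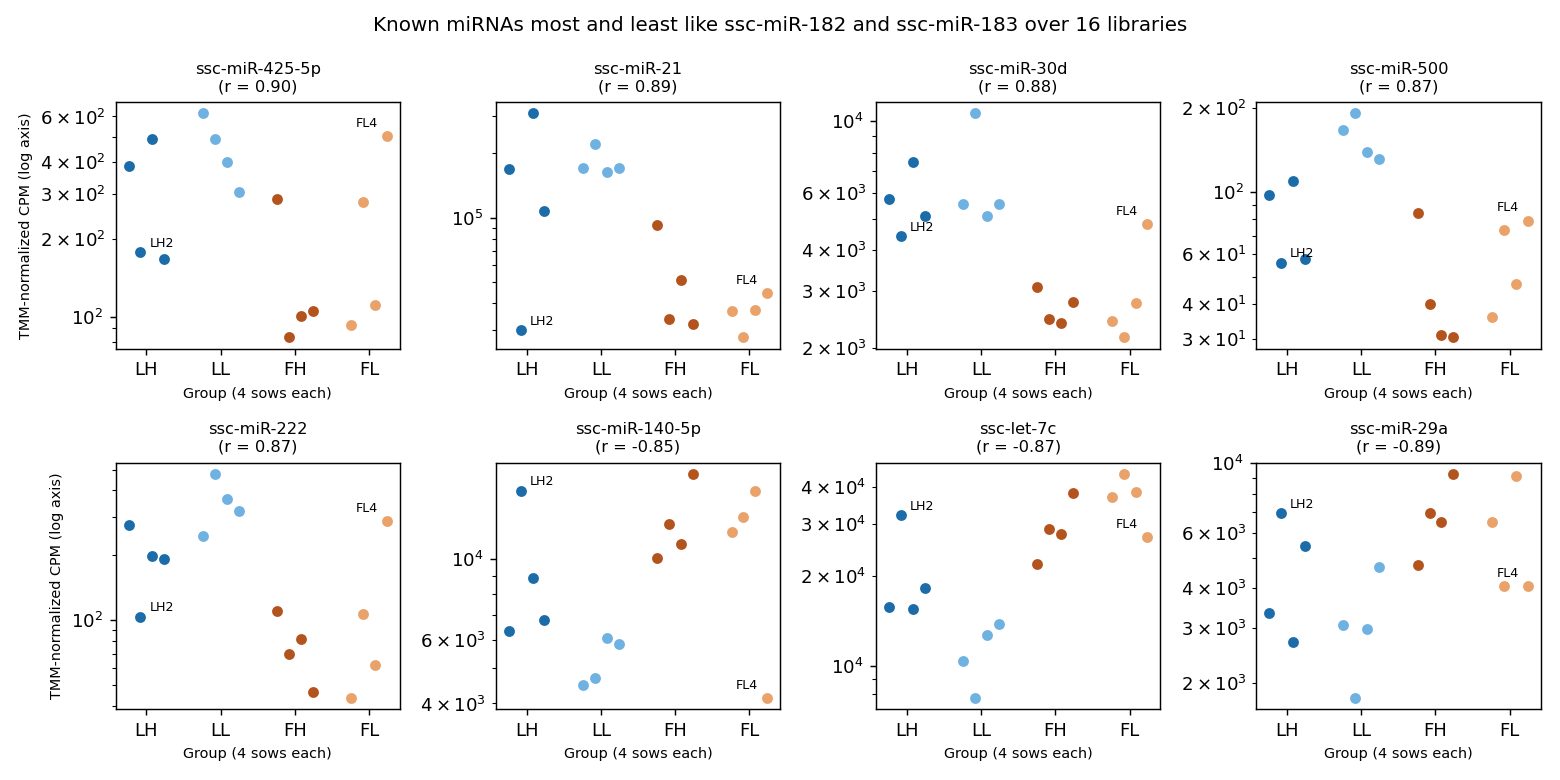
TMM-normalized CPM (log axes) of the 5 known miRNAs with the highest and the 3 with the lowest correlation (r) with ssc-miR-182 and ssc-miR-183 over 16 libraries; a point is a sow. LH2 lies with the follicular sows for ssc-miR-21 and ssc-let-7c, and FL4 with the luteal sows for ssc-miR-425-5p, ssc-miR-222 and ssc-miR-140-5p.

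Lists of miRNAs known from ovarian and other cells were set beside the cluster, with the same threshold. Of 7 miRNAs of the gonad and follicle, 1 was higher and 4 were lower in FL than in LL, with a median log2 fold change of -1.87, beside 30.1% of miRNAs past the threshold and a median of -0.13 over all 445 tested. The medians for LL over LH and FL over FH were 0.61 and -0.57, beside 0.15 and 0.12 over all miRNAs tested. Among these miRNAs ssc-miR-202-5p, known from the gonads, was present in all 16 libraries at 64.5 to 3843 CPM. It was lowest in FL over LL at -2.77 (SE 0.66), and ssc-miR-383 was highest at 3.08 (SE 1.75), short of the threshold. In FH vs. LH only ssc-miR-21 of this list passed, at -1.56 (SE 0.52), and the list's median was -0.12, beside 12.8% of all miRNAs past the threshold and their median of -0.25. In LH vs. LL 1 of the 6 tested was higher, ssc-miR-132, against 13.0% of all miRNAs, and in FH vs. FL and the interaction 0 of 7 passed, against 6.19% and 13.3%. The summed level of the list, most of it ssc-miR-21, was 31903 CPM in LH2 and 110355 to 311984 CPM in the other luteal sows, and 29750 to 94806 CPM in the follicular ones.

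The 4 miRNAs of oviduct or surface epithelium were read because the cluster is known from epithelia. Their summed level was 21834 CPM in LH4, 7793 in FL2 and 15900 in FL4, and 234 to 584 CPM in the other 13 libraries. Of the 4, 1 was lower in LL than in LH and 2 were higher in FL than in FH, ssc-miR-34c and ssc-miR-429 (FL over FH 5.12 with SE 1.68 for ssc-miR-34c). 1 was lower in FH than in LH, 3 were higher in FL than in LL, and 2 were higher in the interaction. The shares of all miRNAs past the threshold were 13.0% for LL over LH, 6.19% for FL over FH, 12.8% for FH over LH, 30.1% for FL over LL and 13.3% for the interaction. The medians of the list were -1.90 for LL over LH, 2.27 for FL over FH, -1.58 for FH over LH and 3.36 for FL over LL, beside 0.15, 0.12, -0.25 and -0.13 over all miRNAs. FL4 had 341 CPM of ssc-miR-429 and 144 CPM of ssc-miR-205, the highest of all 16 sows. The remaining miRNA of the list, ssc-miR-31, was not high in FL4, at 192 CPM within an FL range of 149 to 386 CPM. Its log2 fold change was -0.40 (SE 0.35) for FL over FH and -0.86 (SE 0.34) for FL over LL. LH4, with more ssc-miR-34c than FL4, had 208 CPM of ssc-miR-182, inside the LH range, and FL2, with 7335 CPM of ssc-miR-34c, had 83.2 CPM. LH4 and FL2 had 103 and 42.5 CPM of ssc-miR-429, and 53.0 and 29.5 CPM of ssc-miR-205. The part of epithelial RNA in the levels of FL4 was not tested.

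Of the 6 neural, sensory or neuroendocrine miRNAs, the setting in which the cluster is best known, 5 were tested in the phase comparisons. 2 were lower in FH than in LH, ssc-miR-7 and ssc-miR-129b, against 12.8% of all miRNAs tested past the threshold. In FL over LL 1 was higher, ssc-miR-9 at 1.77, and 1 lower, ssc-miR-137 at -2.86, against 30.1%. In LH vs. LL 1 of 5 was lower and in the interaction 1 of 5 was higher, ssc-miR-9 in both, against 13.0% and 13.3%. In FH vs. FL 0 of 3 passed, against 6.19%. The median was -0.90 for FH over LH and -0.55 for FL over LL, beside -0.25 and -0.13 over all miRNAs tested. Their summed level, most of it ssc-miR-7, was 1043 to 2895 CPM in the luteal libraries and 559 to 886 CPM in the follicular ones other than FL4, which had 1772 CPM. ssc-miR-7, known from endocrine and neural cells, was highest in LH3, at 2769 CPM, the sow with the highest ssc-miR-182. It did not follow the cluster in every sow. In LL1, the sow with the highest ssc-miR-183, it was at 842 CPM, the lowest of the luteal libraries, and in LH2 at 1401 CPM.

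The remaining lists marked blood, muscle and liver. The shares of all miRNAs past the threshold, against which these counts are read, were 12.8% for FH over LH, 30.1% for FL over LL, 13.0% for LL over LH, 6.19% for FL over FH and 13.3% for the interaction. Of 4 leukocyte miRNAs, 3 of them tested in LH vs. LL, 1 was higher in FH than in LH, 1 higher in FL than in LL, 1 higher and 1 lower in the interaction, and 0 passed in either comparison of fecundity. The call in FH over LH, at 14.7, and the lower call in the interaction, at -14.3, were both ssc-miR-142-5p. This entry had 0 counts in all LH libraries, so both calls rest on an entry at the floor. Of 2 erythrocyte miRNAs 0 passed in any of the 5 comparisons. Of 6 muscle miRNAs 5 were tested in each comparison, and of these 2 were lower in LL than in LH, 2 higher in FH than in LH, 4 higher and 1 lower in FL than in LL, 1 lower in the interaction and 0 in FH vs. FL. The medians for FH over LH and FL over LL were 0.53 and 0.49 for leukocytes, -0.85 and -0.03 for erythrocytes and 0.85 and 2.16 for muscle. The muscle list's summed level was 2155 to 3256 CPM in LH and 449 to 984 CPM in LL, and LH2, at 2155 CPM, was not set apart by it. ssc-miR-122, the liver miRNA, was higher in FL than in FH and than in LL and in the interaction, and lay at 1363 CPM in FL2 against 113 CPM in FL4. The part of these cell types in the levels of the cluster was not tested.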

How the data were processed

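The values deposited by the authors are raw counts of reads for each entry in 16 libraries, not normalized. By their methods adapters and low-quality reads were removed, reads were mapped to Sscrofa10.2 with Bowtie2 (2.1.0), and further miRNAs were predicted with miRDeep; how a read was assigned to an entry is not given in the sources used here. Sequences and positions of predicted entries came from the study's supplement, whose starts were shifted by 1 base to count from 1.

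Counts were tested with edgeR 4.0.16 in R 4.3.3 (quasi-likelihood test, TMM, filterByExpr with its minimum count of 10 and minimum total of 15, Benjamini-Hochberg adjustment over all miRNAs tested). LH vs. LL and FH vs. FL used their 8 libraries, and the interaction and phases all 16. Both members passed the filter in every comparison. A miRNA passed the threshold with an unadjusted P under 0.05 and a log2 fold change of 1 or more in size; adjusted p under 0.05 was counted separately. Exact permutation tests used log2(CPM + 1). Tests were checked on simulated counts. The labels give each sow 1 sample. Alternatives were DESeq2 1.42.0, library size only, TMM on known miRNAs, no filter, collapsed identical entries, a replicate block, all libraries in a single fit, a covariate for the clean read share and leaving out each sow. Merging NovelmiRNA-708 with NovelmiRNA-1510 was chosen after seeing the data. The members and lists were chosen with earlier results of these data known. The miRNAs named beside the members were the 5 most and 3 least correlated with them, and examples of the lists.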

Additional observations from a re-analysis of the deposited data

Results flagged for a closer look

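Within each group of 4 sows the levels of the 3 entries and their 3 ratios were searched for a sow far from the rest, by the gap to its nearest neighbour as a share of the group's range. Of 24 combinations of group and quantity, 6 passed Dixon's 95% limit, and the quantities share sows. Chance alone passes about 1 in 20 only where values are normally distributed. Levels and ratios were taken here without logs, so that share need not hold, and no excess over chance is read from the 6. FL4 was far above the other FL sows for ssc-miR-182 (292 CPM), ssc-miR-183 (81.9 CPM) and the merged entry NovelmiRNA-708 and NovelmiRNA-1510 (71.1 CPM). FH1 was far above the other FH sows for ssc-miR-183, at 44.4 CPM. LH2 was far above the other LH sows in the ratio of ssc-miR-182 to ssc-miR-183, at 10.03. LL2 was far above the other LL sows in the ratio of ssc-miR-183 to the merged entry, at 2.64.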

How the results depend on the processing

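The members' log2 fold changes between phases kept their direction under every alternative run, from -3.54 to -1.37. In LH vs. LL both members stayed positive and short of the threshold under all 17 alternatives, from 0.13 to 1.47, and no member or merged entry passed it in any test of fecundity or of the interaction. The numbers of miRNAs past the threshold moved by over 1.5 times with no filter on low counts, to 158 in LH vs. LL, 93 in FH vs. FL, 122 in the interaction, 154 for FH over LH and 250 for FL over LL. Adding the clean read share as covariate left 14 luteal and 6 follicular miRNAs past the threshold for fecundity, the merged entry was at -0.0015 for LL over LH and ssc-miR-183 at -0.038 for FL over FH. A single fit of all libraries gave 37 in FH vs. FL. The interaction of ssc-miR-182 was -0.11 with library size only and -0.066 with TMM on known miRNAs. The cause of these moves was not tested. With a sow left out, the numbers ran from 33 to 94 in LH vs. LL (94 without LH1, 71 without LL4) and from 11 to 43 in FH vs. FL (43 without FL1, 30 without FL3, 11 without FL4). The merged entry ran from -0.12 (without LL1) to 0.75 for LL over LH and from -2.90 (without FL4) to -1.35 for FL over LL. For FL over FH, ssc-miR-182 ran from -0.25 to 1.05, ssc-miR-183 from -0.43 to 1.35 and the merged entry from -0.39 to 1.08. The interaction ran from -0.72 to 0.61 for ssc-miR-182, from -1.11 to 0.69 for ssc-miR-183 and from -0.72 to 0.84 for the merged entry.

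Replicate numbers were not found to pair sows: deviations of same-numbered sows correlated from -0.19 to 0.20. The replicate block left 4 miRNAs past the threshold in FH vs. FL, 39 in the interaction and 32 in LH vs. LL, and changed no call on a member.

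With 4 sows a group and up to 32-fold spread within LH, the fecundity tests were imprecise: each member's 95% interval ran from -0.96 or lower to 2.11 or higher in both phases.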
